A study of Canis lupus familiaris with 6 samples.

Results

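The MHC class II genes of the dog were followed here in single-cell RNA from neural retina lying over a graft of human retinal tissue and from graft-free retina. Members were chosen by name, not by their values: CD74, CIITA, DLA-DRA, DLA-DRB1, DLA-DMA, DLA-DMB, DLA-DOA and DLA-DQA1. Of these 8 genes, 7 were found among the 34981 genes of the deposited tables, and DLA-DQA1, which has no row under that name, was not analysed here. DLA-DRB1 is listed as HLA-DRB1, the symbol that RefSeq gives to the dog gene, and is called HLA-DRB1 below.

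The experiments LG5, RC726 and RC724, 3 in number and run independently, each gave 1 punch over the graft and 1 control punch from a graft-free area, so that each group held 3 libraries of dissociated cells. All dogs were normal or wild type, and the controls carried the same immunosuppression as the tissue over the graft. The grafts were triturated fragments of retinal organoids grown from WA09 CRX-tdTomato, a human embryonic stem cell line with a fluorescent photoreceptor reporter, injected under the retina, and the punches of 5 mm were taken 3 days later. Whether the experiments came from separate dogs, and the ages of the dogs, are not stated in the labels. The p-values of graft against control therefore measure the spread between these experiments only. Those between cell classes count both punches of an experiment as separate units, although both come from the same retina, and so overstate the replication.

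MHC class II molecules display peptides from engulfed material to CD4 T cells. An alpha chain, such as that encoded by DLA-DRA, pairs with a beta chain, such as that of HLA-DRB1, in the endoplasmic reticulum, where the invariant chain CD74 fills the groove and guides the complex to the endosome. Cathepsins cut CD74 there, the DM pair encoded by DLA-DMA and DLA-DMB exchanges its last fragment for a peptide, and DO, to which DLA-DOA contributes a chain, restrains DM. CIITA is the transactivator without which the other members are hardly transcribed, and interferon gamma switches it on in cells that otherwise lack it. In the retina, microglia and infiltrating macrophages are the cells best known for carrying class II, and in the dog resting T cells carry it as well.

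The 6 libraries held between 8778 and 23908 barcodes and between 34768162 and 60755006 unique molecular identifiers (UMIs, counted RNA molecules). Barcodes were grouped into cell classes by clustering without any class II gene, and the clusters were named from marker lists that hold none. LG5 stood apart: its barcodes were shallower, with a median of 1195 UMIs over the graft and 1283 in control, it gave the most myeloid barcodes, and none of its clusters was named astrocyte-like. Levels below are CPM on the usual counts-per-million scale, the UMIs of a gene scaled to all UMIs of the class in that library, and 95% exact Poisson or binomial intervals cover counting error only. The counts come from 3′ ends, so levels of different genes are not compared with each other, and the DLA genes are close relatives whose reads the counting may have split between them.

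Microglia- or macrophage-like barcodes, called myeloid here, carried most of the CD74, HLA-DRB1 and DLA-DRA RNA counted over all libraries, but not in each library. They numbered 714, 39 and 21 over the graft in LG5, RC726 and RC724, against 210, 19 and 10 in control, and made up 3.18%, 0.366% and 0.24% of all retained barcodes over the graft, against 1.25%, 0.204% and 0.124% in control. Over the 6 libraries together, a total in which LG5 weighs most, they held 6276 of 9318 UMIs of CD74 (67.4%), 7664 of 11376 of HLA-DRB1 (67.4%), 367 of 443 of DLA-DRA (82.8%) and 685 of 1283 of DLA-DMA (53.4%). DLA-DMB was spread more widely, with 76 of 257 UMIs (29.6%) in myeloid barcodes and 75 (29.2%) in astrocyte-like ones. Of CIITA, 46 of 113 UMIs (40.7%) were myeloid, and DLA-DOA gave only 25 UMIs in all, 3 of them myeloid.

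CD74, the invariant chain, stood at 2334, 1714 and 2227 CPM in myeloid barcodes over the graft in LG5, RC726 and RC724, against 2444, 1475 and 516 CPM in the control myeloid barcodes. The groups overlapped, with means of 2092 ± 331 CPM over the graft, against 1479 ± 964 CPM in control (SD, n = 3), and the low control value of RC724 rests on 5 UMIs from 10 barcodes, with an interval of 168 to 1205 CPM. Free RNA was estimated at 62.1% of the myeloid UMIs of RC724 control, against 8.48% to 21.4% in the other libraries. Its part in these values was not tested. HLA-DRB1, the beta chain, stood at 3176, 1411 and 1834 CPM over the graft, against 2563, 941 and 516 CPM in control, higher over the graft in each of 3 experiments although the groups overlapped. DLA-DRA, the alpha chain, stood at 159, 58.6 and 91.9 CPM over the graft, against 86.7, 81.4 and 0 CPM in control, where the interval of the 0 reaches 381 CPM. The myeloid class of RC724 control, with 9683 UMIs, is thus too shallow to show whether the lower members are there.

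DLA-DMA, the alpha chain of the peptide exchanger DM, stood at 283, 195 and 174 CPM in myeloid barcodes over the graft, against 196, 81.4 and 103 CPM in control. It was higher over the graft in each of 3 experiments, but LG5 control lay above both lower values of the graft group, so the groups overlapped. The control values rest on 86, 9 and 1 UMIs, so the direction in RC724 hangs on 1 UMI. DLA-DMB, its partner chain, stood at 15.9, 68.4 and 97.0 CPM over the graft, against 13.7, 72.4 and 0 CPM in control. CIITA gave 26, 4 and 8 UMIs in myeloid barcodes over the graft, against 1, 7 and 0 UMIs in control, so that the experiments differed in direction. The DLA-DOA chain gave 3 UMIs in myeloid barcodes of LG5 over the graft and 0 in the other 5 libraries.

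**Figure D1:**
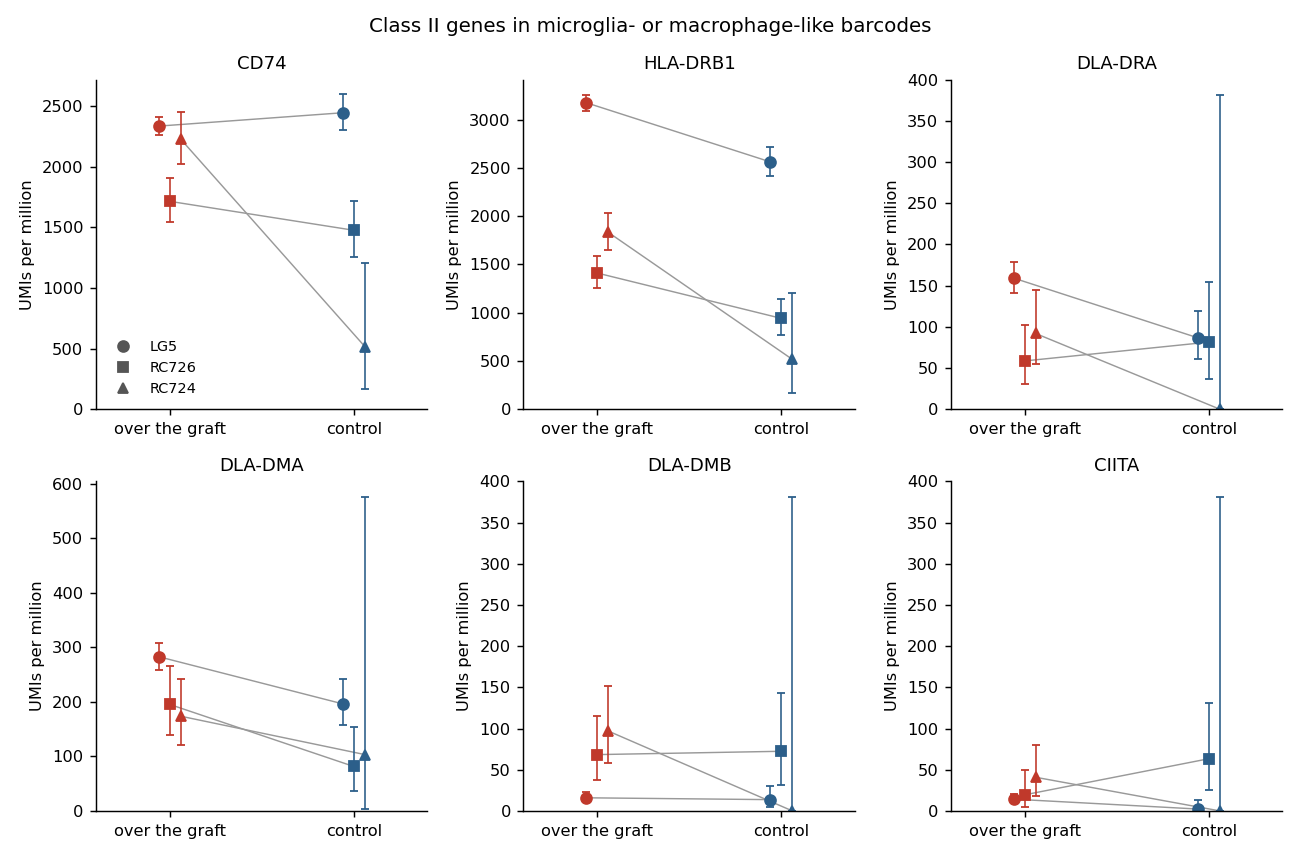
Levels of the class II genes in microglia- or macrophage-like barcodes, in CPM, for each library over the graft and in control. Bars are 95% Poisson counting intervals. CD74 lies between 1714 and 2334 CPM over the graft and between 516 and 2444 CPM in control, so the groups overlap.

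CD74 and HLA-DRB1 were found together in most myeloid barcodes of LG5, and in fewer of RC726. A UMI of CD74 was present in 85.7%, 35.9% and 71.4% of myeloid barcodes over the graft in LG5, RC726 and RC724, against 81.9%, 47.4% and 40.0% in control. Of the myeloid barcodes with CD74, 96.1%, 64.3% and 86.7% over the graft also had HLA-DRB1, against 94.2%, 55.6% and 0% in control. In RC726, 38.5% of myeloid barcodes over the graft and 47.4% in control had no UMI of any member, at median depths of 1504 and 1768 UMIs. Here a few barcodes held much of the RNA: the highest 3 carried 58.7% of the myeloid CD74 over the graft and 81.0% in control. In RC724 the 3 highest likewise carried 65.1% over the graft, and 80.0% of only 5 UMIs in control. In LG5 the 3 highest held 2.38% over the graft and 5.23% in control.

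Among barcodes with at least 1000 UMIs, each thinned to 1000, at least 1 class II UMI was found in 93.7%, 46.4% and 91.7% of myeloid barcodes over the graft, against 93.3%, 46.7% and 50.0% in control. Shallower barcodes were left out, 95, 11 and 9 myeloid ones over the graft and 47, 4 and 8 in control, so that the values of RC724 rest on 12 and 2 barcodes. Rod-like barcodes, which should lack class II, served as the rod background. A class II UMI was found in 1.0%, 0.186% and 0.185% of them over the graft, against 0.693%, 0.26% and 0.204% in control. Of the rods of LG5, 3318 over the graft and 3256 in control were too shallow to count here, and 732 to 952 in each of the other 4 libraries. Unthinned, 7.14% to 38.5% of myeloid barcodes over the graft and 11.9% to 47.4% in control lacked every member, while 98.6% to 99.6% of rod-like barcodes did. Myeloid barcodes thus stood far above the rod background in all 6 libraries. Free RNA was estimated at 3.01% to 5.39% of the UMIs of rods and at 8.48% to 62.1% of those of myeloid barcodes. The rod background is therefore not a measure of free RNA in other classes.

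Against rods the edgeR quasi-likelihood test called all 3 members that passed the filter on low counts higher in myeloid barcodes, among 20.8% of all genes called higher. CD74 was higher by 10.43 ± 0.47 on the log2 scale (SE, adjusted p = 3.73e-23), HLA-DRB1 by 11.05 ± 0.49 and DLA-DMA by 8.45 ± 0.44, while the median over all genes was -0.50. Against Müller glia, the radial support glia of the retina, the same 3 of 3 members were called higher, with 18.3% of all genes called higher. Here CD74 differed by 8.83 ± 0.54 (adjusted p = 1.6e-12), HLA-DRB1 by 9.67 ± 0.50 and DLA-DMA by 6.05 ± 0.35, beside a median of -0.21 over all genes. Against bipolar cells, the interneurons that pass on photoreceptor signals, CD74 differed by 10.00 ± 0.52 (adjusted p = 2.17e-19), HLA-DRB1 by 10.54 ± 0.50 and DLA-DMA by 7.50 ± 0.42, again 3 of 3, with 18.4% of all genes called higher. The remaining 4 members did not pass the filter in these fits. In the graft fits, DLA-DMA did not pass it in rods and no member did in bipolar cells. Such members entered the class fits through the myeloid sums, where they are high. The counts of 3 of 3 called higher are therefore no support of their own.

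The scaling between such unlike classes was not neutral. With size factors of the DESeq2 kind the median over all genes moved by -0.60, -0.49 and -0.43 against rods, Müller glia and bipolar cells, and calls against rods became 1566 higher and 5980 lower in place of 2257 higher and 4017 lower. Against Müller glia they became 1443 higher and 5266 lower in place of 2290 and 3437, and against bipolar cells 1488 higher and 5661 lower in place of 1962 and 4106. The same 3 members were called higher in each of these comparisons under that scaling, with CD74 at 9.80, 8.33 and 9.59.

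**Figure D2:**
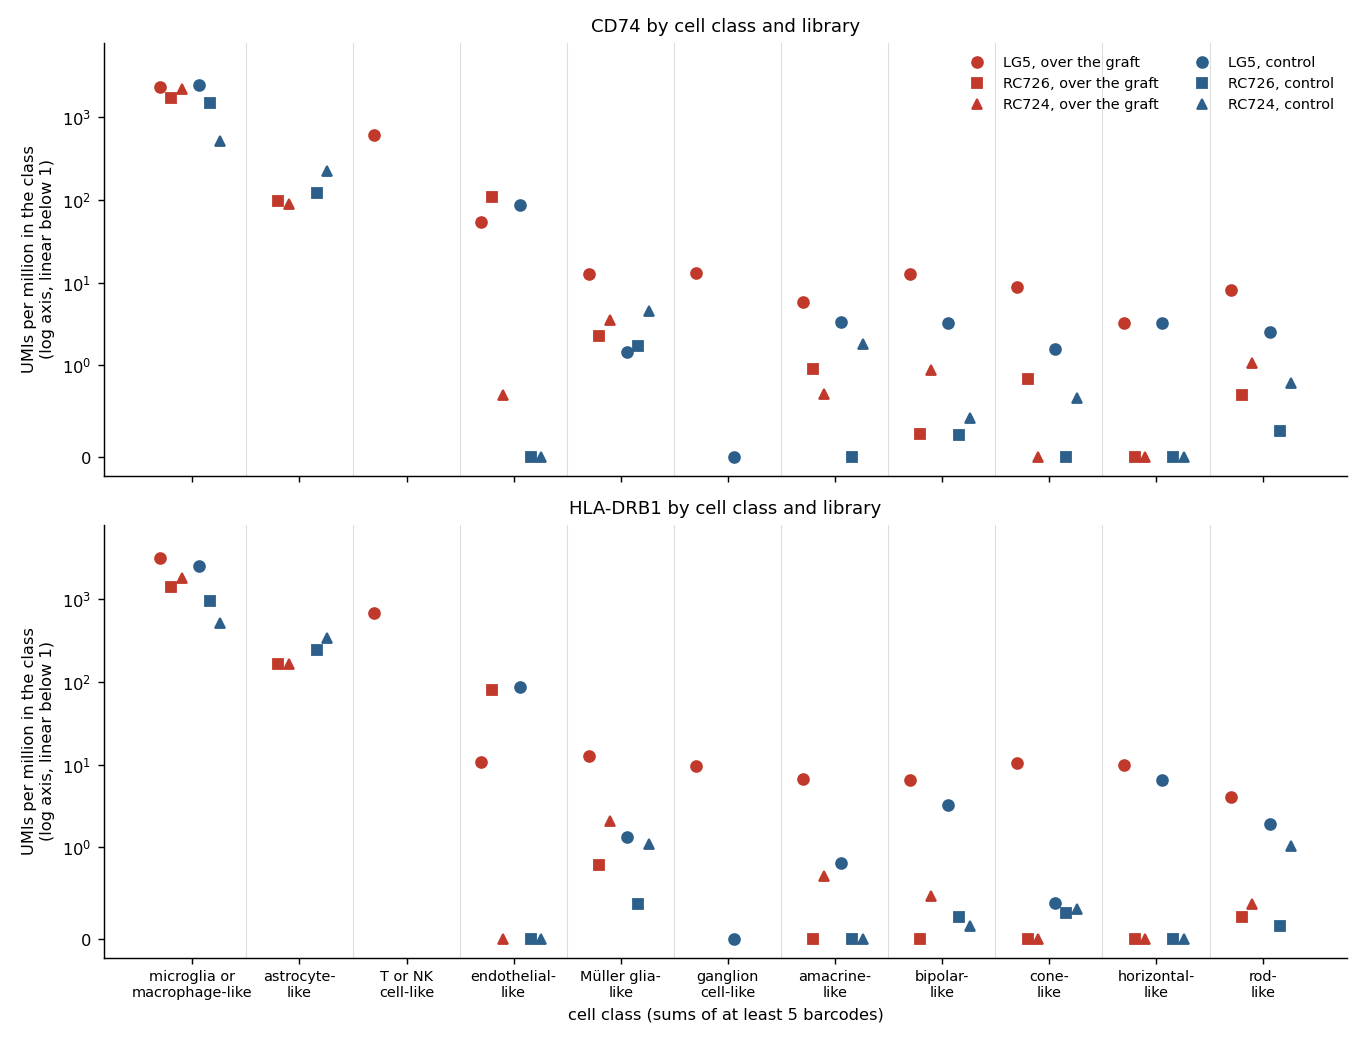
Levels of the class II genes by cell class and library, in CPM on an axis that is logarithmic above 1 and linear below it, over the graft and in control. CD74 lies between 516 and 2444 CPM in myeloid barcodes, at 608 CPM in T- or NK-like barcodes of LG5 over the graft, between 89.2 and 222 CPM in astrocyte-like barcodes of RC726 and RC724, and between 0.284 and 8.10 CPM in rods.

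The other genes of antigen presentation were read from a list of 36 genes, of which 33 have a row in the files. In myeloid barcodes against rods, 12 of the 24 that passed the filter were called higher and 3 lower. Against Müller glia 13 of 27 were higher and 2 lower, and against bipolar cells 14 of 23 were higher and 1 lower. Of all genes tested, 20.8%, 18.3% and 18.4% were called higher in these fits. Like the members, genes of the list could pass the filter through the myeloid sums, where they are high. Their counts are therefore no support of their own. CTSS, the cathepsin S that trims the invariant chain, was higher by 9.06 against rods, 9.36 against Müller glia and 6.69 against bipolar cells. IFI30, the thiol reductase of the endosome, was higher by 7.97, 6.55 and 7.58. The co-stimulatory ligand CD80 was higher by 6.73, 8.5 and 7.27, and CD83, a glycoprotein that stabilises surface class II, by 11.33, 7.94 and 10.24. CTSZ, another cathepsin, was higher by 7.1 against rods and by 6.27 against bipolar cells. All of these passed an adjusted p of 0.05.

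Over the graft, edgeR called 0 members changed in myeloid barcodes, where 0.221% of all genes tested were called. HLA-DRB1 alone had an unadjusted p under 0.05, and DESeq2 called 0 members. Of the 7 members, 5 passed the filter, and all 5 had a positive log2 change, with a median of 0.59 beside 0.11 over all 3168 genes. CD74 differed by 0.59 ± 0.34 (SE, adjusted p = 0.9998) and came to -0.01 without RC724. HLA-DRB1 differed by 0.80 ± 0.34 (adjusted p = 0.796), DLA-DMA by 0.77 ± 0.62, DLA-DRA by 0.41 ± 0.61 and DLA-DMB by 0.18 ± 0.64. DLA-DRA came to -0.04 without LG5 and DLA-DMB to -0.01 without RC724. In LG5, RC726 and RC724 in turn the log2 ratio of CD74 was -0.07, 0.22 and 2.11, that of HLA-DRB1 0.31, 0.58 and 1.83, and that of DLA-DMA 0.53, 1.26 and 0.75. The RC724 ratios of these genes rest on 5, 5 and 1 UMIs in control.

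The myeloid class was not made of the same clusters in both groups. In LG5, a cluster led by FN1 and FBP1 held 211 of 714 myeloid barcodes over the graft (29.6%) and 7 of 210 in control (3.33%), while a cluster led by the complement genes C1QA, C1QB and C1QC held 241 over the graft (33.8%) and 122 in control (58.1%). In RC726 and RC724 a shallow cluster led by PYCARD and C1QB held 71.8% and 71.4% of the myeloid barcodes over the graft, against 78.9% and 80.0% in control. The FN1 and FBP1 cluster had 4033 CPM of CD74 over the graft, against 3650 CPM in control, and the complement cluster had 2000 CPM, against 2629 CPM in control. HLA-DRB1 stood in the FN1 and FBP1 cluster at 5981 CPM over the graft, against 3504 CPM in control from 72 UMIs in 7 barcodes, and in the complement cluster at 2607 CPM, against 2754 CPM in control. In the PYCARD cluster CD74 stood at 935, 266 and 1339 CPM over the graft in LG5, RC726 and RC724, against 1455, 478 and 235 CPM in control. The part of this cluster makeup in the myeloid values was not tested.

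Among the other antigen presentation genes in myeloid barcodes, 1 of the 17 tested was called higher over the graft and none lower. It was CTSB, the lysosomal cathepsin B, at 2.68 ± 0.67 (adjusted p = 0.0309). That call was lost without any 1 of the 3 experiments, without the filter on low counts (adjusted p = 0.0842) without the experiment as a block, with gated barcodes and with free RNA subtracted. CTSS stood at -0.28 ± 0.48 (adjusted p = 0.9998).

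**Figure D3:**
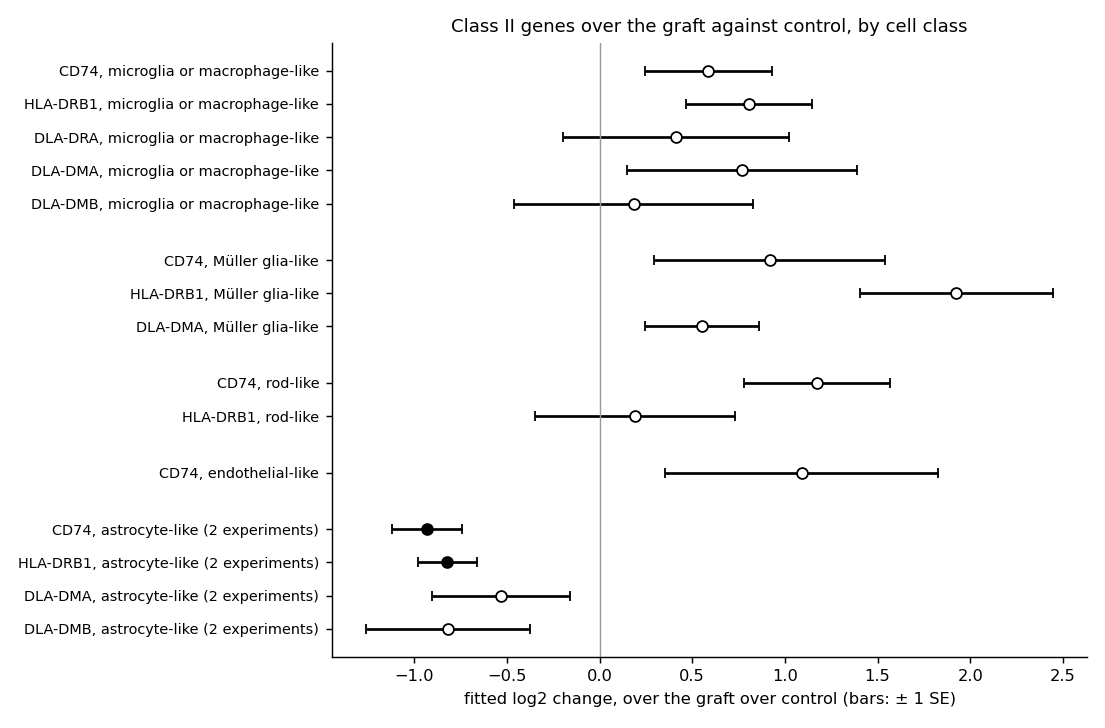
Log2 change of the class II genes over the graft against control in each class where they passed the filter, from the edgeR fits. Bars are 1 SE to each side and filled points have an adjusted p under 0.05. The myeloid, Müller glia, rod and endothelial points are open, with HLA-DRB1 in Müller glia at 1.93, and the filled points are CD74 at -0.93 and HLA-DRB1 at -0.82 in astrocyte-like barcodes.

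Müller glia carried little class II RNA, with the highest levels of CD74 and HLA-DRB1 in LG5 over the graft. CD74 stood at 12.8, 2.25 and 3.57 CPM over the graft, against 1.44, 1.73 and 4.50 CPM in control, from 166, 39 and 90 UMIs over the graft and 14, 18 and 95 in control. HLA-DRB1 stood at 12.8, 0.806 and 2.10 CPM over the graft, against 1.34, 0.384 and 1.09 CPM in control, higher in each experiment with overlapping groups. DLA-DMA stood at 4.33, 2.71 and 2.10 CPM over the graft, against 1.96, 2.21 and 1.70 CPM in control, with the RC724 graft value below the RC726 control value. None of the 3 members that passed the filter was called by edgeR or DESeq2, where edgeR called 0.129% of all genes tested. HLA-DRB1, with an unadjusted p under 0.05, differed by 1.93 ± 0.52 (adjusted p = 0.222), CD74 by 0.92 ± 0.62 (adjusted p = 0.594) and DLA-DMA by 0.55 ± 0.31 (adjusted p = 0.519).

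The summed level of the myeloid marker list in Müller glia stood at 108, 25.7 and 83.4 CPM over the graft, against 26.7, 23.5 and 54.1 CPM in control. It was higher over the graft in each of 3 experiments, as HLA-DRB1 and DLA-DMA were, whereas CD74 was lower over the graft in RC724. LG5 over the graft was highest for the list and for CD74, HLA-DRB1 and DLA-DMA. Of the 3945 Müller glia-like barcodes of LG5 over the graft, 7 had at least 3 UMIs of CD74, against 0 of 2868 in LG5 control, and 17.3% of the Müller glia-like barcodes with CD74 there also had HLA-DRB1, against 14.3% in control. CD74 came to -0.14 without LG5, and to -1.68 once an estimated free RNA profile was subtracted. The part of myeloid RNA in the Müller glia values was not tested further.

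Rods had 8.10, 0.674 and 1.06 CPM of CD74 over the graft, against 2.54, 0.284 and 0.810 CPM in control. LG5 was high in both groups and the groups overlapped, though the value over the graft was higher in each of 3 experiments. CD74 differed by 1.17 ± 0.39 (adjusted p = 0.0507) and HLA-DRB1 by 0.19 ± 0.54 (adjusted p = 0.836), so that neither of the 2 members that passed the filter was called, where 22.6% of all genes tested were. CD74 had an unadjusted p under 0.05, and DESeq2 gave it an adjusted p of 0.192 and HLA-DRB1 none. The summed myeloid marker list stood at 24.3, 3.18 and 3.94 CPM in rods over the graft, against 8.89, 2.06 and 2.20 CPM in control, the same order as that of CD74 within each experiment. No rod-like barcode with CD74 over the graft had a UMI of HLA-DRB1 as well, and 1 in LG5 control did. Rod-like barcodes with CD74 numbered only 40, 11 and 14 over the graft, so little can be read from this.

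Around class II, 7 of the 25 tested antigen presentation genes were called higher in rods over the graft and 1 lower, where 22.6% of all genes tested were called in either direction. Without the experiment as a block edgeR called 0 genes there, so none of these calls held, and IRF1 had an adjusted p of 0.461. Interferon gamma pathway genes were 4 of the 7, among them IRF1 at 4.67 ± 0.49 (adjusted p = 5.43e-05) and SOCS1, a feedback inhibitor, at 2.30 ± 0.34 (adjusted p = 0.000573). LGMN, an asparagine-specific lysosomal protease, stood at 1.80 ± 0.17, CTSB at 0.91 ± 0.20 and CD274, the inhibitory ligand PD-L1, at 1.06 ± 0.16. The gene called lower, named after its value was seen, was MARCHF8, a membrane ubiquitin ligase, at -0.58. In Müller glia none of 28 was called, and the smallest p-values belonged to SOCS1 at 1.37 ± 0.27 (adjusted p = 0.109), CTSZ at 1.09 ± 0.27 (adjusted p = 0.194) and CD274 at 0.69 ± 0.26 (adjusted p = 0.335). CIITA itself gave 4 UMIs in all rod-like barcodes and 15 in all Müller glia-like ones, too few for a test.

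In cones, bipolar, amacrine and horizontal cells no member passed the filter, and 3.56%, 0.444%, 0.977% and 0.0334% of all genes tested were called there. CD74 in bipolar cells stood at 12.6, 0.254 and 0.945 CPM over the graft, against 3.27, 0.246 and 0.432 CPM in control. In amacrine cells it stood at 5.83, 0.960 and 0.691 CPM over the graft, against 3.30, 0 and 1.81 CPM in control. In both classes LG5 over the graft was highest for CD74, and the groups overlapped. That library also had the highest estimates of free RNA, 96.2% of the UMIs of bipolar and 41.7% of those of amacrine cells. The part of free RNA in these values was not tested. DLA-DMA in bipolar cells stood at 1.85, 1.27 and 1.18 CPM over the graft, against 0.363, 0.246 and 0.576 CPM in control, from 6, 5 and 5 UMIs over the graft and 1, 1 and 4 in control. DLA-DMB in amacrine cells gave 2, 1 and 1 UMIs over the graft and none in control. These 2 genes rest on so few UMIs here that neither passed the filter on low counts, so they were not tested. Endothelial barcodes had 54.2, 108 and 0.679 CPM over the graft, against 87.1, 0 and 0 CPM in control. Of the 133 UMIs behind the value of 108 CPM, 131 came from 1 barcode, and without it that library had 1.85 CPM. CD74 was the only member tested in that class, at 1.09 ± 0.74 (adjusted p = 0.770), with 0.111% of all genes called, and it came to -0.42 without RC726.

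Astrocyte-like barcodes of RC726 and RC724 also carried class II RNA. The class is a single cluster named from an astrocyte list of GFAP, PAX2, S100B, ALDH1L1 and IGF2. It had 106 and 192 barcodes over the graft in RC726 and RC724, against 36 and 110 in control. Of the list, only 3 markers were enriched in the cluster, and none was among its leading genes. The list scored 1.422 there, beside 0.361 for the next list, that of B or plasma cells. GFAP, the intermediate filament of astrocytes, stood at 431 and 465 CPM over the graft, against 240 and 114 CPM in control. The whole myeloid marker list summed to 3.55 and 2.62 CPM over the graft and to 10.3 and 2.96 CPM in control, against 9088 to 16878 CPM in myeloid barcodes. Of that list, CX3CR1, P2RY12, C1QC, FCER1G, SPI1, TREM2, CD163 and LYZ were at 0 in all 4 libraries, and the other markers gave the sums. The sum was lower over the graft in each experiment, the same order as that of CD74 below. The part of myeloid RNA in the astrocyte-like values was not tested. The rod marker list summed to 424 and 203 CPM over the graft, against 601 and 480 CPM in control, and its part in the values below was not tested. The comparisons of astrocyte-like barcodes below were chosen after their values were seen.

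CD74 stood at 96.6 and 89.2 CPM in astrocyte-like barcodes over the graft in RC726 and RC724, against 122 and 222 CPM in control, from 163 and 341 UMIs over the graft and 71 and 526 in control. HLA-DRB1 stood at 165 and 165 CPM over the graft, against 241 and 337 CPM in control. Both genes were lower over the graft in each of the 2 experiments, and the share of all genes that were so is not given here. DLA-DMA stood at 24.3 and 8.90 CPM over the graft, against 13.8 and 21.6 CPM in control, so the 2 experiments differed in direction. DLA-DMB stood at 5.92 and 7.06 CPM over the graft, against 6.89 and 14.4 CPM in control, also lower in each experiment but with overlapping groups. DLA-DRA gave 2 and 3 UMIs over the graft, against 0 and 7 in control, and CIITA 2 and 3 over the graft, against 1 and 5. The DLA-DOA chain gave 1 UMI, in RC724 control.

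The share of astrocyte-like barcodes with class II RNA differed in the same direction as the level. A UMI of CD74 was found in 34.9% and 51.6% of astrocyte-like barcodes over the graft, against 63.9% and 79.1% in control, at median depths of 15599 and 19820 UMIs over the graft and 16604 and 21202 in control. At least 3 UMIs were found in 17.9% and 18.2% over the graft, against 38.9% and 54.5% in control. CD74 and HLA-DRB1 were found together in 31.1% and 44.8% over the graft, against 52.8% and 77.3% in control. Thinned to 1000 UMIs, 22.6% and 19.8% had a class II UMI over the graft, against 27.8% and 46.8% in control, far above the rod background. Free RNA was estimated at 6.12% to 9.62% of the UMIs of this class, above the estimates for rods.

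**Figure D4:**
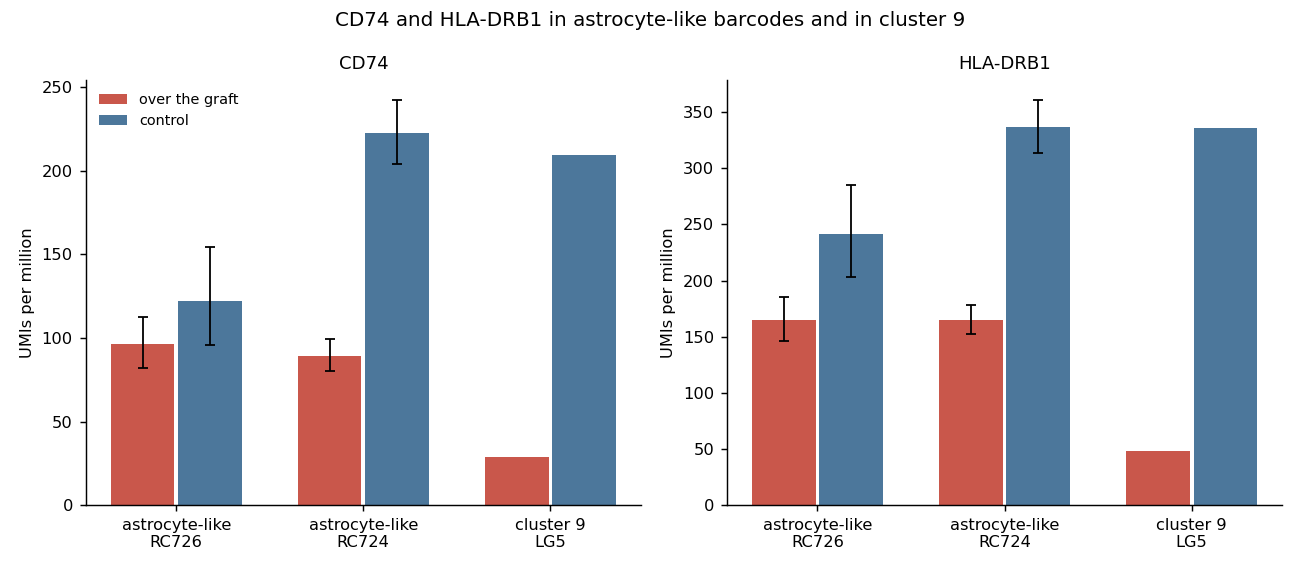
CD74 and HLA-DRB1 in astrocyte-like barcodes of RC726 and RC724 and in an unnamed cluster of LG5 that ranks highest on the astrocyte markers, in CPM, over the graft and in control. Bars are 95% Poisson counting intervals for the astrocyte-like class, and the LG5 cluster has none. Both genes are lower over the graft in each pair, with CD74 at 96.6 CPM over the graft against 122 CPM in control in RC726, 89.2 against 222 CPM in RC724 and 28.6 against 209 CPM in LG5.

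In the edgeR fit over these 2 experiments, CD74 fell over the graft by 0.93 ± 0.19 on the log2 scale (SE, adjusted p = 0.0109) and HLA-DRB1 fell by 0.82 ± 0.16 (adjusted p = 0.00761). They were 2 of the 4 members that passed the filter, where 0.318% of all genes tested were called lower. DLA-DMB stood at -0.82 ± 0.44 (adjusted p = 0.709) and DLA-DMA at -0.53 ± 0.37 (adjusted p = 0.832). With DESeq2, without the experiment as a block, with doublets kept (adjusted p = 0.199 for CD74 and 0.128 for HLA-DRB1), or with barcodes gated on markers in place of clusters, neither call held. None of the 24 tested antigen presentation genes was called in that fit, with LAG3, a T cell receptor for class II, at 1.28 ± 0.52 (adjusted p = 0.441).

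Astrocyte-like barcodes stood between Müller glia and myeloid barcodes. Against Müller glia all 4 members tested were called higher, with 23.4% of all genes called higher: CD74 by 5.01 ± 0.19 (adjusted p = 8.46e-08), HLA-DRB1 by 7.18 ± 0.32, DLA-DMB by 4.09 ± 0.49 and DLA-DMA by 2.56 ± 0.29. In the graft fits DLA-DMB passed the filter in astrocyte-like barcodes but not in Müller glia, so the count of 4 of 4 is no support of its own. Myeloid barcodes in turn were higher than astrocyte-like ones in the 3 of 3 members tested, with 17.5% of all genes called higher: CD74 by 3.69 ± 0.34 (adjusted p = 2.27e-25), HLA-DRB1 by 2.52 ± 0.34 and DLA-DMA by 3.39 ± 0.40. In this last comparison the size factors of the DESeq2 kind moved the median over all genes by -0.42 and gave 774 higher and 2502 lower calls in place of 1078 and 1886. CD74 was then at 3.28.

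Whether the change over the graft in astrocyte-like barcodes differs from that in other classes was tested as an interaction, and edgeR and DESeq2 called 0 members. Set against Müller glia, where 0.00616% of all genes were called, HLA-DRB1 differed by -1.62 ± 0.44 (adjusted p = 0.652) and CD74 by -0.71 ± 0.30 (adjusted p = 0.934). Set against myeloid barcodes, where 0% of all genes were called by edgeR or by DESeq2, CD74 differed by -2.04 ± 0.78 (adjusted p = 1) and HLA-DRB1 by -2.13 ± 0.78 (adjusted p = 1). CD74 and HLA-DRB1 had an unadjusted p under 0.05 in both tests.

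LG5 has no astrocyte-like class, but its unnamed cluster led by WFDC2 and CDO1 had 826 barcodes over the graft and 373 in control, with GFAP at 345 CPM over the graft, against 484 CPM in control. CD74 there stood at 28.6 CPM over the graft, against 209 CPM in control, from 77 and 241 UMIs, and HLA-DRB1 at 48.7 CPM, against 336 CPM in control. A UMI of CD74 was found in 6.66% of its barcodes over the graft and in 35.7% in control. The summed myeloid list stood at 37.6 CPM over the graft, against 6.95 CPM in control, so that it lay on the opposite side to CD74. These values come from 1 library a group and were not tested.

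The class that held most of the CD74 RNA differed between libraries. Myeloid barcodes held 81.8%, 47.6% and 44.9% of the CD74 UMIs over the graft in LG5, RC726 and RC724, against 73.5%, 53.8% and 0.766% in control. The mean was 58.1% ± 20.6 over the graft and 42.7% ± 37.6 in control (SD, n = 3), and the difference of 15.4 ± 25.9 percentage points had p = 0.5 in an exact two-sided paired sign-flip test, which cannot go below 0.25 with 3 pairs. Astrocyte-like barcodes held 22.1% and 35.1% of CD74 over the graft in RC726 and RC724, against 23.4% and 80.6% in control. In RC724 control, 94.1% of the HLA-DRB1 UMIs and 84.7% of all class II UMIs were astrocyte-like. Without RC724, the difference in the myeloid share of CD74 was 1.05 percentage points.

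**Figure D5:**
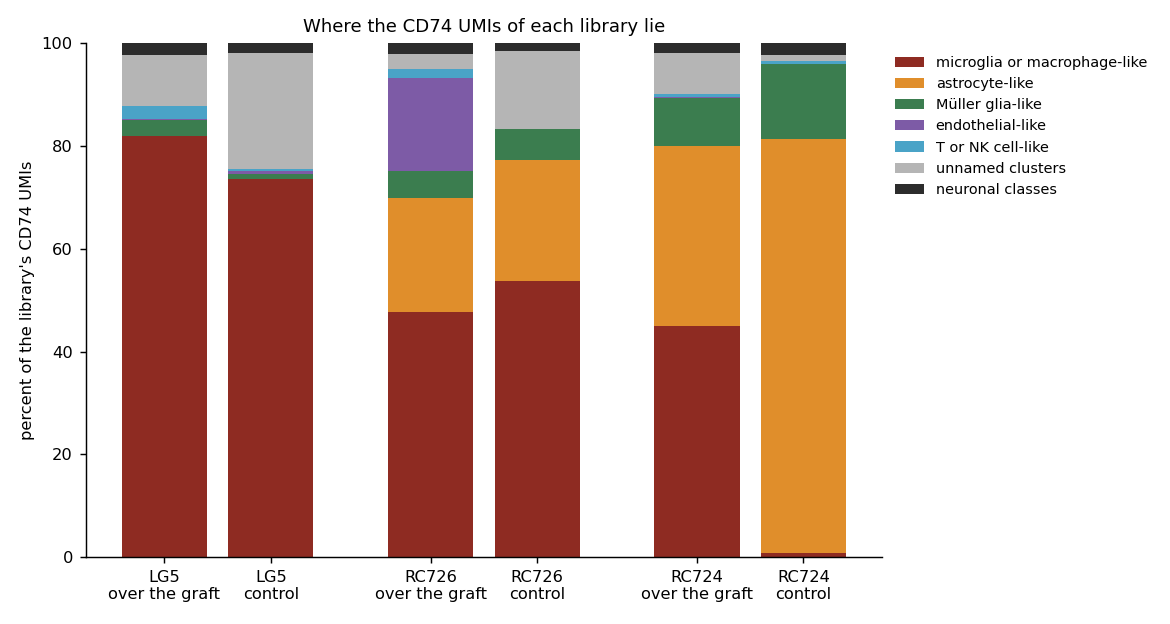
Share of each library's CD74 UMIs by cell class, in percent, over the graft and in control for each experiment. Myeloid barcodes hold 81.8% over the graft and 73.5% in control in LG5, and 44.9% over the graft and 0.766% in control in RC724, where astrocyte-like barcodes hold 35.1% over the graft and 80.6% in control.

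Counted over the whole punch, without any cell class, class II RNA was higher over the graft in each of 3 experiments. The 7 members together stood at 333, 32.5 and 40.1 CPM of all UMIs of the punch over the graft, against 112, 17.7 and 34.2 CPM in control. The groups overlapped, because LG5 control lay above both other graft libraries. The mean log2 ratio was 0.89 ± 0.67 (SD, n = 3), with folds from 1.17 to 2.97, and the exact two-sided sign-flip test gave p = 0.25, the smallest it can give. In such values, more cells that carry the RNA and more RNA per cell cannot be told apart.

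By member, CD74 stood at 132, 14.1 and 16.3 CPM of the punch over the graft, against 49.3, 7.71 and 13.4 CPM in control, a mean log2 ratio of 0.86 ± 0.57 (exact p = 0.25). DLA-DRA had a mean log2 ratio of 1.51 ± 0.70, DLA-DMA of 1.03 ± 0.71 and HLA-DRB1 of 0.93 ± 0.75, each higher in 3 of 3 experiments. DLA-DMB, at 0.40 ± 0.42, and CIITA, with 47, 18 and 23 UMIs over the graft and 5, 18 and 11 in control, were higher on the CPM scale in 2 of 3 experiments (exact p = 0.5 each). The DLA-DOA chain gave 8, 4 and 2 UMIs over the graft, against 5, 0 and 7 in control, too few for a ratio. Of the 3 experiments, LG5 had the highest ratio for CD74, HLA-DRB1, DLA-DRA and DLA-DMA.

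Across classes, the level of HLA-DRB1 was the one most like that of CD74 among the members. Over 51 sums of UMIs by library and class with at least 20 barcodes, which share libraries and differ in depth, log2 levels of HLA-DRB1 had a Pearson r of 0.983 with those of CD74, DLA-DMA of 0.917, DLA-DRA of 0.871, CIITA of 0.846, DLA-DMB of 0.755 and DLA-DOA of 0.383. Among all other genes the most alike was LOC100856137 with r = 0.967, which RefSeq places between DLA-DQB1 and DLA-DOB and lists under that number only. It was followed by KCTD12 with 0.951, ARF6 with 0.894, SPC24 with 0.879 and RASSF2 with 0.877. LOC100856137 stood at 1177, 513 and 700 CPM in myeloid barcodes over the graft, against 844, 434 and 310 CPM in control, the last from 3 UMIs.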

How the data were processed

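Dissociated cells of dog neural retina were profiled with 10x Single Cell 3′ v3.1 chemistry, per the labels' protocols. The deposited matrices hold whole-number counts of UMIs. Cell Ranger made them, in version 6.0.2 for both LG5 libraries, 7.0.0 for RC726 control and 7.1.0 for the other 3, per the file headers. Genome build, annotation, intron setting and the handling of human reads are not stated there or in the labels. RefSeq's dog gene table, of assembly UU_Cfam_GSD_1.0, was used for names and neighbouring genes only, and no coordinates or sequences are printed.

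Kept were barcodes that had 300 or more genes and no more than 20% of their UMIs in 13 mitochondrial genes. The automatic scrublet call marked at most 0.0351% of a library and was set aside, and the 6% with the highest doublet score in each library were removed, which left between 8051 and 22446 barcodes. Between 17 and 102 barcode sequences were shared by a pair of libraries. Barcodes were clustered with scanpy 1.11.5 and leidenalg 0.10.2 (2062 genes, 30 components, 20 neighbours, resolution 1.5; 1652 immune barcodes again at resolution 1.0), without class II and antigen presentation genes and without 149 genes that differed between groups. Of 49 clusters, 31 were named from 19 marker lists, by a log2 score of at least 0.8, a margin of 0.4, at least 3 markers and at most 30% doublets. These limits on naming were set after the data were seen, so shares of classes depend on names rebuilt here.

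UMIs were summed by library and class. Classes with at least 5 barcodes in every library were tested with edgeR 4.0.16 in R 4.3.3 (quasi-likelihood, TMM, filterByExpr, Benjamini-Hochberg adjustment over all genes tested, called at an adjusted p under 0.05), with the experiment as a block for graft against control and the library as a block between classes. The script was tested on simulated data. Shares and punch totals were compared by exact paired sign-flip tests. The design places both punches of an experiment in the same retina. Their deviations correlated at 0.842 to 0.949 in rods, Müller glia and bipolar cells, and at 0.271, 0.328 and -0.103 in myeloid barcodes.

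The members, the gene lists and the tests were chosen with earlier results of these data known, and the astrocyte-like comparisons after their values were seen. Every member is named. Of the antigen presentation list, up to 6 called genes per comparison by smallest p, or the 3 with the smallest p where none was called, were eligible to be named, and the 5 genes most like CD74 were named. A gene of that list that the rule would name is not reported here. Alternatives were DESeq2, its size factors in edgeR, no filter, no block, leaving out each experiment, stricter barcode filters, doublets kept, marker gating of single barcodes and subtraction of an estimated free RNA profile.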

Additional observations from a re-analysis of the deposited data

How the results depend on the processing

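Alternative settings gave 644 values. For the main results, 187 stayed, 15 moved and 1 changed sign. For the named genes, 407 stayed, 25 lost their call, 3 gained one and 6 changed sign. Without the filter on low counts, edgeR called 1 member in Müller glia and 1 in rods over the graft in place of 0, 7, 7 and 6 in place of 3 in myeloid barcodes against rods, Müller glia and bipolar cells, and 6 in place of 3 against astrocyte-like barcodes. In those myeloid comparisons 9532, 7729, 9559 and 4990 of all genes were then called in either direction, in place of 6274, 5727, 6068 and 2964. With doublets kept, 1 member was called in rods. Leaving out each experiment gave 3 to 5, 3 to 6 and 3 to 5 members in myeloid barcodes against rods, Müller glia and bipolar cells, the highest each time without RC724. Over all settings, the count of all genes called in these comparisons ran from 5374 to 9532, 4288 to 7729 and 4027 to 9559. In astrocyte-like barcodes over the graft, 0 members in place of 2 were called with DESeq2, without the replicate block, with doublets kept and with gated barcodes. Gating left 2 members in place of 4 in astrocyte-like barcodes against Müller glia, where 2224 in place of 7317 of all genes were called. As each experiment was left out, the log2 change over the graft in myeloid barcodes ran from -0.0082 (without RC724) to 1.13 for CD74, from -0.037 (without LG5) to 1.08 for DLA-DRA and from -0.0091 (without RC724) to 0.31 for DLA-DMB. It ran from -0.14 (without LG5) to 1.90 for CD74 in Müller glia and from -0.42 (without RC726) to 1.07 for CD74 in endothelial barcodes. Other reversals were CD74 in Müller glia at -1.68 with free RNA subtracted and DLA-DMA there at -0.21 with gated barcodes. The cause of these shifts was not tested. Without the replicate block, edgeR called 0 genes in every graft comparison, against 3364 of all genes in rods and 7 in myeloid barcodes with it. Over all settings the count of genes called over the graft ran from 0 to 12 in myeloid barcodes (main 7), 0 to 855 in Müller glia (21), 0 to 3775 in rods (3364), 0 to 941 in cones (414), 0 to 567 in bipolar cells (57), 0 to 240 in amacrine cells (111), 0 to 123 in horizontal cells (2), 0 to 92 in endothelial barcodes (7) and 0 to 129 in astrocyte-like barcodes (76). The difference in the myeloid share of CD74 ran from 1.05 to 26.2 percentage points as each experiment was left out. The myeloid tests gave no value under stricter barcode filters or a minimum of 20 barcodes, and leaving out an experiment was not run for the fits over 2 experiments. With 10 myeloid barcodes in RC724 control, changes of the lower members were not detectable at this depth.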

Other observations

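Other immune barcodes also carried class II RNA. The T- or NK-like class had 171 barcodes in LG5 over the graft and 4 in LG5 control. In LG5 over the graft it had 608 CPM of CD74 (interval 505 to 725 CPM) and 692 CPM of HLA-DRB1, with a UMI of CD74 in 40.4% of barcodes at a median depth of 859 UMIs. After thinning to 500 UMIs, 43.3% of the 171 had a class II UMI, and after thinning to 1000 UMIs, which left out 106 of them, 67.7% of the other 65 did. Free RNA was estimated at 62.6% of the UMIs of this class, and its part in these values was not tested. The cluster behind the class had 12 markers of its list enriched, while its leading genes included IGLL5, an immunoglobulin lambda-like gene. The part of B cells in these values was not tested either. LG5 control had 5 UMIs of CD74 in that class, RC726 13 over the graft and none of these barcodes in control, and RC724 6 over the graft and 4 in control, so that no comparison was made.

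Immune clusters left unnamed, whose leading genes included C1QB and TYROBP or CCL23, held further CD74. A cluster of 12 barcodes, all in LG5 over the graft, had 2625 CPM of CD74, and one of 23 barcodes, 19 of them in LG5 over the graft, had 2061 CPM. Clusters of 46 and 150 barcodes had 682 CPM and 351 CPM. In these clusters in turn, 55.6%, 34.3%, 60.0% and 11.2% of the barcodes clustered had been removed for a high doublet score. The cluster of 150 scored 1.54 on the myeloid list and 1.22 on the rod list. These clusters are left out of the myeloid class.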
